A study of Mus musculus with 13 samples.

Results

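Foxf1, Foxc1, Foxa1 and Foxj1 are 4 genes of the forkhead (Fox) family of transcription factors, described here in cultured oligodendrocyte lineage cells from Eed cKO and control mice. Eed is part of the core of Polycomb repressive complex 2 (PRC2). The members are 4 of 13549 genes in the deposited count table and 4 of the 23 forkhead genes in it, and they were chosen by their counts across the 4 groups of RNA libraries. Their own levels and ratios are therefore given as a description, with no test. RNA was measured in 9 libraries of C57BL/6 brain cells. Immature oligodendrocytes (iOLs) had been differentiating for 2 days, after thyroid hormone (T3) was added and PDGF removed, and came from Eed cKO (2 libraries) and control (2 libraries) brains at postnatal day 6. Oligodendrocyte precursor cells (OPCs), which proliferate in PDGF and NT-3, came from Eed cKO brains (replicates 1 and 2 at postnatal day 7, replicate 3 at day 6) and control brains (replicate 1 at day 7, replicate 2 at day 6).

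The labels write the same genotype entry for cKO and control samples, so the groups rest on the sample titles. The Cre line and the deleted part of Eed are not given in the sources used here. The libraries hold 17417529 to 19680398 counts each. Every gene in the table has at least 1 count in all 9 libraries and 10 or more counts in at least 4 of them. Foxf1 and Foxa1 reached 10 counts in all 5 cKO libraries and in 0 of the 4 control libraries, so they are in the table through their cKO libraries alone. Foxc1 reached 10 counts in 5 cKO and 2 control libraries, and Foxj1 in 5 and 4. Eed itself had 14.6 and 12.1 CPM (read counts per 1000000 of TMM-scaled library size) in cKO iOLs, against 18 and 21.2 CPM in control iOLs. It had 13.3, 11.8 and 12.5 CPM in cKO OPCs, against 21.7 and 16.8 CPM in control OPCs. The cKO libraries lay below the control libraries at both stages, but edgeR's quasi-likelihood test did not pass, with an adjusted p of 0.0973 in iOLs and 0.0847 in OPCs. With postnatal day as a term in the fit it passed at both stages. The cKO libraries thus still held Eed reads, and with the deleted part unknown these counts do not show how much intact Eed was left.

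Forkhead factors bind DNA through a winged-helix domain, and several of them act early in the specification of a tissue. Foxf1 is a factor of the splanchnic mesoderm that forms the mesenchyme of lung and gut, and it lies downstream of hedgehog signalling there. Foxc1 is needed in the meninges, the vasculature and the neural crest-derived mesenchyme of the head and eye. Foxa1 opens chromatin as a pioneer factor in endoderm and, with its relative Foxa2, in the floor plate and dopamine neurons. Foxj1 is the master regulator of motile cilia and is known in the brain for its role in ependymal cells. PRC2 places the repressive H3K27me3 mark, typically at CpG-rich promoters of developmental factors.

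In the RefSeq table on GRCm38.p6 (mm10), Foxf1 lies at chr8:121084386-121088154, Foxc1 at chr13:31806646-31810635, Foxa1 at chr12:57540628-57548029 and Foxj1 at chr11:116330704-116335499. Of the 4 genes, 2 were matched to a window in the RefSeq promoter table, Foxc1 and Foxa1, and Foxf1 and Foxj1 were not. The windows of Foxc1 and Foxa1 are shown because CpG-dense promoters are the known sites of PRC2 and because these genes had higher counts in every cKO library than in any control library of their stage. Each window runs from 250 bases before to 50 bases after a RefSeq start site, 5′ to 3′ on the gene's strand, with every CpG in capitals. Foxc1 is on the plus strand at chr13:31806396-31806695, and Foxa1 on the minus strand at chr12:57546062-57546361.
Foxc1 promoter: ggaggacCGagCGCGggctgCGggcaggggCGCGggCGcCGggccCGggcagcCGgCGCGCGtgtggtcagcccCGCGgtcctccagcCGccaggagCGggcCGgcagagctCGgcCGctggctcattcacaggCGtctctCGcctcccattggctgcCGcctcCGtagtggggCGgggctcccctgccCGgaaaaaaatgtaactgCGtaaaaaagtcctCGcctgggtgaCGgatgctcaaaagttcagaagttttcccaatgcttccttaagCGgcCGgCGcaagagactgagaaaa
Foxa1 promoter: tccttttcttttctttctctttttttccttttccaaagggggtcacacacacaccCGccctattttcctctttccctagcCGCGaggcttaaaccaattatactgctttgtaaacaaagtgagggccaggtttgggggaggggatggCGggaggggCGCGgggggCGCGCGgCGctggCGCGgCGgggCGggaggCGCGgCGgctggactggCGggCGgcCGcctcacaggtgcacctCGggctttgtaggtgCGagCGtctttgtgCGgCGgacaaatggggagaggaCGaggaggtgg
The Foxc1 window holds 32 CpG, an observed to expected ratio of 0.943, and the Foxa1 window 26 CpG, a ratio of 0.929. Over all 32851 promoter windows of the table the median was 7 CpG, with quartiles of 3 and 20, and a ratio of 0.384. Of all windows, 9.52% held at least as many CpG as Foxc1 and 16.9% at least as many as Foxa1. The forkhead motif GTAAACA, searched with its reverse complement TGTTTAC, occurs in 1199 windows (3.65%). It occurs once in the Foxa1 window, where it begins 141 bases before the start site, and not in the Foxc1 window. The letters say nothing of what is bound there, and the ChIP-seq samples were not analysed here.

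Foxf1, the mesenchymal factor, was at the edge of detection in control cells of both stages and clearly counted in cKO cells. It had 102 and 143 counts in cKO iOLs, against 2 and 2 counts in control iOLs. It had 306, 325 and 275 counts in cKO OPCs, against 2 and 1 counts in control OPCs. The groups did not overlap at either stage. The level averaged 6.49 ± 1.51 CPM in cKO iOLs and 0.112 ± 0.002 CPM in control iOLs (SD, n = 2 each). In OPCs it averaged 16.1 ± 1.71 CPM in cKO (n = 3) and 0.085 ± 0.046 CPM in control (n = 2). The 2 counts of control OPC replicate 1 correspond to 0.117 CPM with an exact 95% Poisson interval of 0.0142 to 0.423, and the 1 count of replicate 2 to 0.0526 CPM with an interval of 0.00133 to 0.293. The lowest cKO library, iOL replicate 1 at 5.43 CPM (4.43 to 6.59), lay above all of these intervals.

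The ratio of cKO to control levels of Foxf1 was 57.9 in iOLs, with an exact 95% counting interval of 22.3 to 214. In OPCs it was 193, with an interval of 65.9 to 939. Its wide interval comes from the 3 counts of the control OPCs. By edgeR's log2 fold change Foxf1 stood first of the 13549 genes in the OPC comparison and 3rd in the iOL comparison. Without control OPC replicate 1 the OPC ratio was 305, and without control OPC replicate 2 it was 137. Within postnatal day 7 the ratio was 146, and within day 6 it was 270. Intervals cover counting error only, since reads without molecular identifiers are not independent molecules. In bulk RNA, fewer cells with a transcript and less of it per cell cannot be told apart.

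Foxc1, the meningeal and vascular factor, was low in control cells but counted in every control library. It had 66 and 75 counts in cKO iOLs, against 11 and 13 counts in control iOLs. It had 80, 67 and 70 counts in cKO OPCs, against 8 and 6 counts in control OPCs. No cKO library overlapped a control library. The level averaged 3.74 ± 0.321 CPM in cKO iOLs and 0.673 ± 0.069 CPM in control iOLs (SD, n = 2 each). It averaged 3.85 ± 0.421 CPM in cKO OPCs (n = 3) and 0.392 ± 0.108 CPM in control OPCs (n = 2). The cKO to control ratio was 5.55 (3.58 to 8.95) in iOLs and 9.92 (5.78 to 18.4) in OPCs, with counting intervals in brackets. Foxc1 ranked 123rd of all genes by fold change in the iOL comparison and 44th in the OPC comparison. Its OPC ratio within day 7 was 8.48 and within day 6 was 11.4.

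Foxa1, the endoderm and floor plate factor, had the lowest counts of the 4 in the cKO libraries. It had 27 and 32 counts in cKO iOLs, against 2 and 4 counts in control iOLs. It had 56, 38 and 40 counts in cKO OPCs, against 1 and 4 counts in control OPCs. The groups again did not overlap. The level averaged 1.56 ± 0.181 CPM in cKO iOLs and 0.168 ± 0.077 CPM in control iOLs (SD, n = 2 each). It averaged 2.38 ± 0.567 CPM in cKO OPCs (n = 3) and 0.135 ± 0.107 CPM in control OPCs (n = 2). The cKO to control ratio was 9.29 (4.02 to 26.3) in iOLs and 17.1 (7.17 to 53.7) in OPCs. Foxa1 ranked 53rd by fold change in the iOL comparison and 31st in the OPC comparison. The OPC ratio was 43.4 within day 7 and 9.80 within day 6, with intervals of 7.60 to 1731 and 3.54 to 37.7 that overlap. Without control OPC replicate 2 it was 40.6, and without control OPC replicate 1 it was 11.3. In the RefSeq table the Foxa1 gene overlaps Ttc6. Strand use per library is not stated, so reads in the overlap cannot be assigned with certainty.

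Foxj1, the factor of motile cilia, did not share this pattern, and it was not silent in the control libraries. It had 858 and 921 counts in cKO iOLs, against 416 and 614 counts in control iOLs. It had 157, 137 and 160 counts in cKO OPCs, against 137 and 164 counts in control OPCs. The iOL groups did not overlap, while the OPC groups did. The level was 45.7 and 48.7 CPM in cKO iOLs, against 23.6 and 34.1 CPM in control iOLs. In OPCs it was 8.52, 7.38 and 8.26 CPM in cKO, against 8.03 and 8.63 CPM in control. The cKO to control ratio was 1.63 (1.51 to 1.76) in iOLs and 0.965 (0.832 to 1.12) in OPCs. In iOLs it was 1.38 without control iOL replicate 1 and 2.00 without control iOL replicate 2. Foxj1 ranked 1546th of all genes by fold change in the iOL comparison and 7165th in the OPC comparison. With at least 137 counts in each control library, Foxj1 goes against a description of all 4 genes as silent in control cultures. Bulk counts do not show which cells of a culture held its RNA.

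**Figure D1:**
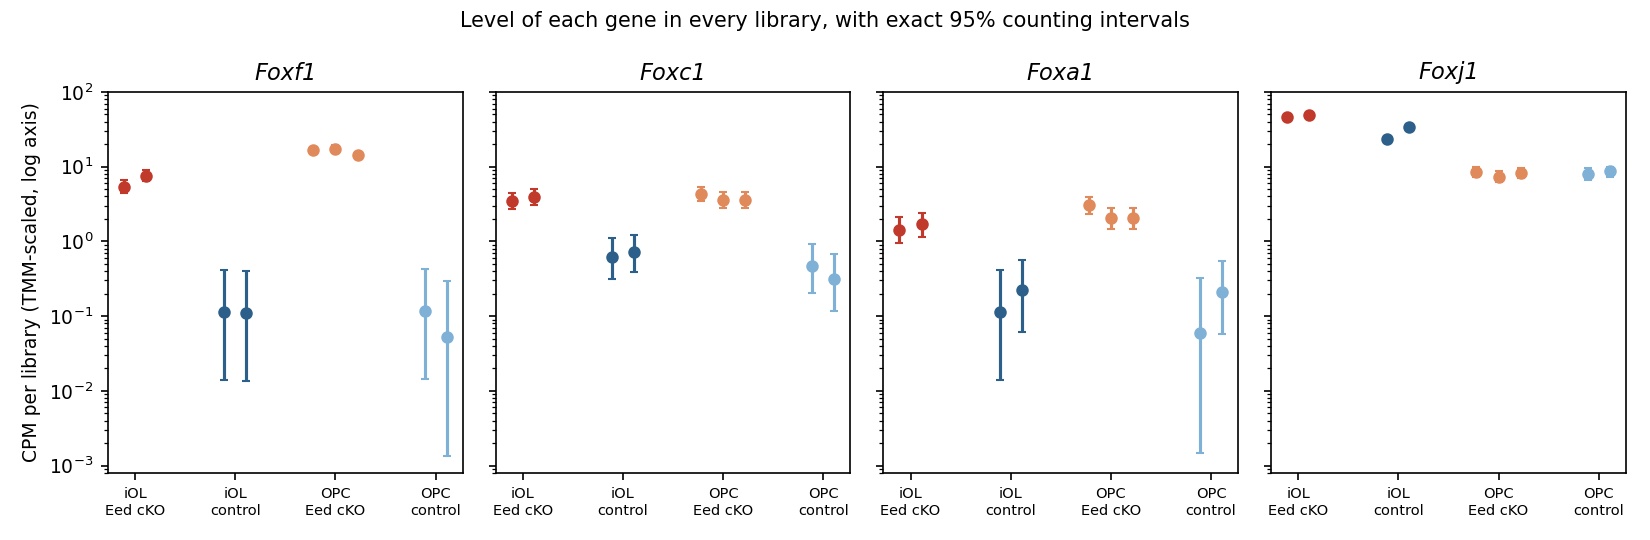
CPM of Foxf1, Foxc1, Foxa1 and Foxj1 in each of the 9 libraries on a log axis, by group, with exact 95% Poisson intervals for counting error. For Foxf1, Foxc1 and Foxa1 the cKO libraries lie above the control libraries at both stages, while Foxj1 lies between 7.38 and 8.63 CPM in all 5 OPC libraries and between 23.6 and 48.7 CPM in the 4 iOL libraries.

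Across the members, 4 of 4 had no overlap and a higher level in cKO than in control iOLs, where 33.6% of all genes did. In OPCs 3 of 4 did, where 16.9% of all genes did. These counts follow from the choice of the members, and nothing is read from them.

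Between the 2 stages Foxj1 differed from the other 3 genes. Foxj1 was higher in iOLs than in OPCs in both genotypes. The ratio of iOL to OPC levels was 5.86 (5.28 to 6.51) in cKO cells and 3.46 (3.04 to 3.95) in control cells, with no overlap in either. Foxj1 ranked 156th of all genes by this fold change in cKO cells and 385th in control cells. Foxf1 was lower in cKO iOLs than in cKO OPCs, with a ratio of 0.404 (0.350 to 0.466) and no overlap. Foxa1 was also lower there, with a ratio of 0.658 (0.476 to 0.901) and no overlap, but within day 6 its ratio was 0.758 with an interval of 0.499 to 1.16. Foxc1 had a ratio of 0.972 (0.780 to 1.21) in cKO cells, and its libraries overlapped. In cKO cells 34.3% of all genes were higher in iOLs with no overlap and 34.7% were lower. In control cells the iOL to OPC ratio was 1.35 (0.228 to 9.22) for Foxf1 and 1.22 (0.309 to 5.03) for Foxa1, so a change could not be seen at these counts. For Foxc1 it was 1.74 (0.862 to 3.63). The libraries of Foxc1 did not overlap there, as for 34.3% of all genes, but its counting interval includes 1. The 2 stages share no libraries, but the comparisons between stages reuse the libraries of the comparisons between genotypes.

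**Figure D2:**
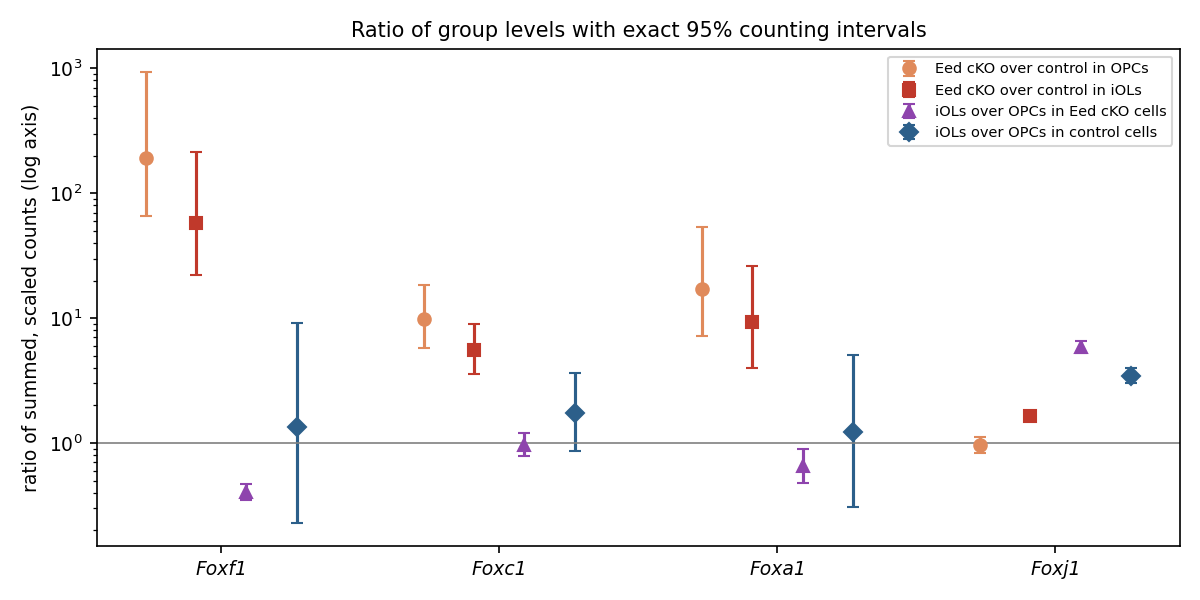
Ratio of summed, TMM-scaled counts of the 4 genes in the 4 comparisons on a log axis, with exact 95% counting intervals and a grey line at 1. Foxf1 has ratios of 193 in OPCs and 57.9 in iOLs for cKO over control, and Foxj1 has ratios of 5.86 and 3.46 for iOLs over OPCs in cKO and control cells.

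The order of the 4 groups thus differed by gene. Foxf1 was highest in cKO OPCs and next in cKO iOLs, and the control groups did not differ beyond their counting error. Foxa1 followed the same order, with the limit given above for its cKO groups within day 6. For Foxc1 the cKO groups overlapped at the top and the control groups lay below. Foxj1 was highest in cKO iOLs and next in control iOLs, and the OPC groups overlapped at the bottom. Over the 9 libraries, which fall into these 4 groups, Pearson's r of log2 CPM was 0.976 between Foxf1 and Foxc1, 0.975 between Foxf1 and Foxa1 and 0.960 between Foxc1 and Foxa1. Foxj1 had an r of -0.087 with Foxf1, 0.119 with Foxc1 and -0.028 with Foxa1. The points share the group structure and the library scaling, so these values describe a pattern over groups.

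The genes of the table with the most similar pattern were named by the same measure. For Foxf1 these were Ets2 (r = 0.997), Tbx18 (0.996), Igf2bp1 (0.995) and Flt4 (0.993). Ets2 is a transcription factor, Tbx18 a T-box factor of mesenchyme and pericytes, Igf2bp1 a fetal RNA-binding protein and Flt4 a VEGF receptor of lymphatic endothelium. Summed over libraries, Igf2bp1 had 347 counts in cKO iOLs, against 24 counts in control iOLs, and 1137 counts in cKO OPCs, against 27 counts in control OPCs. For Foxc1 they were E030030I06Rik (0.988), Pmaip1 (0.987), Angpt2 (0.987) and Cdkn2b (0.986). Pmaip1 encodes the pro-apoptotic protein Noxa, Angpt2 a ligand of the Tie2 receptor and Cdkn2b the cell cycle inhibitor p15. Cdkn2b had 183 counts in cKO iOLs, against 30 counts in control iOLs, and 327 counts in cKO OPCs, against 23 counts in control OPCs. For Foxa1 they were Plag1 (0.990), Zfhx4 (0.987), She (0.986) and Greb1 (0.985). Plag1 is a zinc-finger factor and Zfhx4 a zinc-finger homeobox factor. Greb1 is known from breast cells as an estrogen-responsive gene.

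For Foxj1 the 4 were Kif9 (0.992), a kinesin of motile cilia, Fam161b (0.991), Ahnak (0.991) and Sbno2 (0.988). Kif9 had 212 counts in cKO iOLs, against 118 counts in control iOLs, and 39 counts in cKO OPCs, against 26 counts in control OPCs. Ahnak, a very large scaffold protein, had 4484 counts in cKO iOLs, against 2317 counts in control iOLs, and 694 counts in cKO OPCs, against 383 counts in control OPCs.

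Beside the members, 19 other forkhead genes had a row in the table, of 41 searched for. Foxd1, Foxd2 and Foxp2 reached 10 counts in 3, 2 and 3 control libraries, so they needed cKO libraries to have a row. So did Foxb1 and Foxr2, with 3 control libraries each, which were not called in cKO against control cells. In cKO iOLs 7 of the 19 (36.8%) were called higher and 1 (5.26%) lower at an adjusted p under 0.05 by edgeR, where 7.08% of all genes were higher and 3.51% lower. The median log2 fold change of the 19 was 0.53, against 0.00 over all genes. In cKO OPCs 3 of the 19 (15.8%) were higher and 0 lower, where 2.94% of all genes were higher and 0.303% lower. The median was 0.28, against -0.02 over all genes. At an unadjusted p under 0.05 there were 11 genes in iOLs and 5 in OPCs.

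Foxd1, Foxd2 and Foxp1 rose in cKO cells of both stages. Foxd2, a relative of Foxd1, had 5.85 and 10.4 CPM in cKO iOLs, against 1.53 and 1.11 CPM in control iOLs (log2 fold change 2.61 ± 0.44 SE, adjusted p = 0.00666, edgeR). In OPCs it had 51, 42 and 23 counts in cKO, against 1 and 2 counts in control, a ratio of 24.7 with a counting interval of 8.26 to 122 (adjusted p = 0.00794, edgeR). Like Foxf1, it was near the limit of detection in control OPCs. Foxd1, a factor of kidney stroma and of the developing diencephalon, had 2.77 and 2.17 CPM in cKO iOLs, against 0.852 and 0.333 CPM in control iOLs (2.05 ± 0.46, adjusted p = 0.0230, edgeR). It had 9.44, 7.38 and 5.11 CPM in cKO OPCs, against 2.28 and 2.00 CPM in control OPCs (1.77 ± 0.36, adjusted p = 0.0317, edgeR).

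Foxp1, a factor of neurons, heart and lymphocytes, had 15.4 and 17.1 CPM in cKO iOLs, against 4.94 and 5.39 CPM in control iOLs (1.65 ± 0.19, adjusted p = 0.00130, edgeR). It had 16.4, 19.5 and 16.4 CPM in cKO OPCs, against 10.1 and 7.95 CPM in control OPCs (0.95 ± 0.17, adjusted p = 0.0183, edgeR). Foxp2, known for vocal and motor circuits, rose in iOLs (2.05 ± 0.45), with 35 and 49 counts in cKO, against 7 and 12 counts in control. Foxo6 (1.24 ± 0.30), the stress and insulin response factor Foxo3 (0.61 ± 0.13) and the mitotic factor Foxm1 (0.53 ± 0.13) also rose in iOLs. Foxn2 fell by 0.69 ± 0.14 on the log2 scale in iOLs. CpG-dense promoter windows were found both at forkhead genes that passed the test and at genes that did not. The windows of Foxk2 (59 CpG), Foxj3 (42), Foxj2 (37) and Foxp4 (33) hold more CpG than that of Foxc1. None of these 4 genes passed the test in cKO cells at either stage. A window of Foxp1 (44), called at both stages, and that of Foxo3 (35), called in iOLs, also hold more. Other windows of Foxp1 hold 13 and 5 CpG. Of the genes called at both stages, Foxd2 has 26 CpG and Foxd1 has 15. A link between CpG number and the calls was not tested.

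In iOLs the call of Foxp1 held in all 16 alternative analyses. That of Foxd1 ended without control iOL replicate 2 or either cKO iOL library, and that of Foxd2 without either control iOL library or cKO iOL replicate 2. Those of Foxm1, Foxn2, Foxo3, Foxo6 and Foxp2 ended without any 1 of the 4 iOL libraries. The adjusted p of the lost calls ran from 0.0511 to 0.227, and those of Foxm1 and Foxo6 were also lost without cKO OPC replicate 2, that of Foxm1 also without cKO OPC replicate 1. In OPCs the call of Foxd2 ended without control replicate 1 (adjusted p = 0.0807). Those of Foxd1 and Foxp1 ended without cKO replicate 1 or 2 and in a fit of the OPC libraries alone, and that of Foxd1 also without control OPC replicate 1 or either cKO iOL library (adjusted p from 0.0576 to 0.126). The count of 7 higher in iOLs was 1 or 2 without any 1 of the iOL libraries. The count of 3 in OPCs was 1 without control OPC replicate 1 or cKO OPC replicate 1 or 2, and 5 without control OPC replicate 2 or cKO OPC replicate 3.

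**Figure D3:**
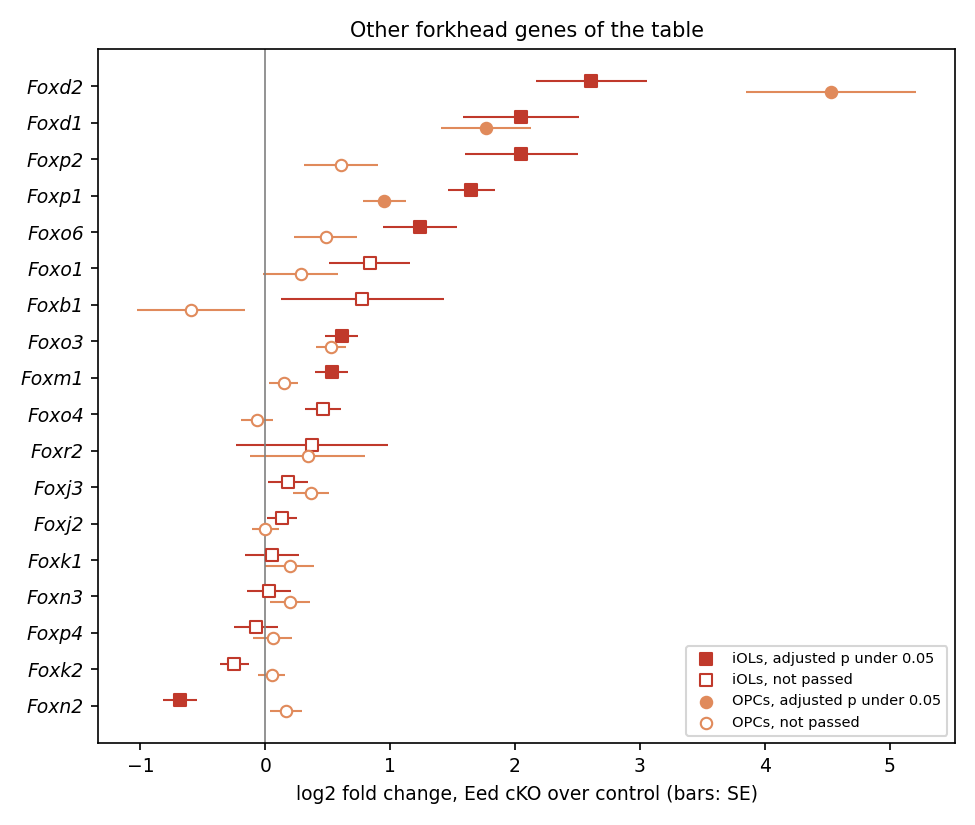
Log2 fold change of 18 of the 19 other forkhead genes in Eed cKO over control cells (edgeR, bars SE), squares for iOLs and circles for OPCs, filled where the adjusted p is under 0.05. Foxd2 has the largest value at both stages, 2.61 in iOLs and 4.53 in OPCs, and Foxn2 is the one filled point below 0.

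On differentiation most called forkhead genes fell. In cKO cells 2 of the 19 (10.5%) were higher in iOLs than in OPCs and 8 (42.1%) lower, where 18.5% of all genes were higher and 21.8% lower. In control cells 2 were higher and 10 (52.6%) lower, where 21% of all genes were higher and 25.3% lower. Foxd2 rose in both, by 1.97 ± 0.37 in cKO cells and by 3.89 ± 0.75 in control cells. Foxm1 averaged 38.3 ± 3.21 CPM in cKO iOLs, against 123 ± 2.71 CPM in cKO OPCs, and 26.5 ± 2.13 CPM in control iOLs, against 111 ± 13.8 CPM in control OPCs. The 8 lower in cKO cells numbered 5 without cKO iOL replicate 2, and the 2 higher in control cells 5 without control OPC replicate 2. The difference between stages of the cKO effect was called for 0 of the 19 by edgeR, where 0.945% of all genes were called higher and 0.886% lower. At an unadjusted p under 0.05 there were 4, and Foxn2 came nearest (-0.85 ± 0.19, adjusted p = 0.0562). Effects called at 1 stage are thus not shown to differ from the other stage.

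The genes beside the members on their chromosomes were called higher about as often as genes in general. For each member the 4 nearest genes with a row on either side were taken, 32 in all. In cKO iOLs 3 of the 32 (9.38%) were called higher and 0 lower, where 7.08% of all genes were higher and 3.51% lower. In cKO OPCs 1 (3.12%) was called higher and 1 (3.12%) lower, where 2.94% and 0.303% of all genes were. The medians were 0.02 in iOLs and -0.09 in OPCs. The closest measured genes were Mthfsd, 3.47 kb from Foxf1, Gmds, 8.95 kb from Foxc1, and Rnf157, 0.846 kb from Foxj1. Mthfsd had a log2 fold change of 0.12 ± 0.13 in cKO iOLs and 0.08 ± 0.12 in cKO OPCs. Gmds had 0.01 ± 0.21 and -0.27 ± 0.18, and Rnf157 had 0.02 ± 0.13 and 0.11 ± 0.12. None of these passed the test at either stage.

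Irf8, a factor of myeloid cells 328 kb from Foxf1, rose in iOLs (2.32 ± 0.41, adjusted p = 0.00824, edgeR), with 107 counts in cKO, against 20 counts in control. Clec14a, an endothelial lectin 717 kb from Foxa1, rose in iOLs (2.84 ± 0.70, adjusted p = 0.0309, edgeR), with 47 counts in cKO, against 6 counts in control. Sphk1, a sphingosine kinase 195 kb from Foxj1, rose in iOLs (2.04 ± 0.50, adjusted p = 0.0308, edgeR). Ttc6, which overlaps Foxa1, rose in OPCs (2.02 ± 0.40, adjusted p = 0.0273, edgeR), and its reads in the overlap are uncertain. Nkx2-1, the ventral forebrain, lung and thyroid factor 1004 kb from Foxa1, fell by 1.94 ± 0.32 on the log2 scale in OPCs (adjusted p = 0.0133, edgeR). The calls of Irf8 and Clec14a ended without either control iOL library or cKO iOL replicate 2, and that of Clec14a also without cKO OPC replicate 2. That of Sphk1 ended without control iOL replicate 1, either cKO iOL library or cKO OPC replicate 1. Those of Ttc6 and Nkx2-1 ended without control OPC replicate 1 or cKO OPC replicate 1, and that of Ttc6 also without cKO OPC replicate 2 or either cKO iOL library and in a fit of the OPC libraries alone. The adjusted p of these lost calls ran from 0.0504 to 0.211. The number of called neighbours was 0 in OPCs without control OPC replicate 1 or cKO OPC replicate 1, and 12 without control OPC replicate 2. It was 0 in iOLs without control iOL replicate 1 or cKO iOL replicate 2. Fendrr, Foxc2 and Foxl1 near Foxf1, Foxf2 and Foxq1 near Foxc1, and Nkx2-9 and Pax9 near Foxa1 have no row and were not analysed here.

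**Figure D4:**
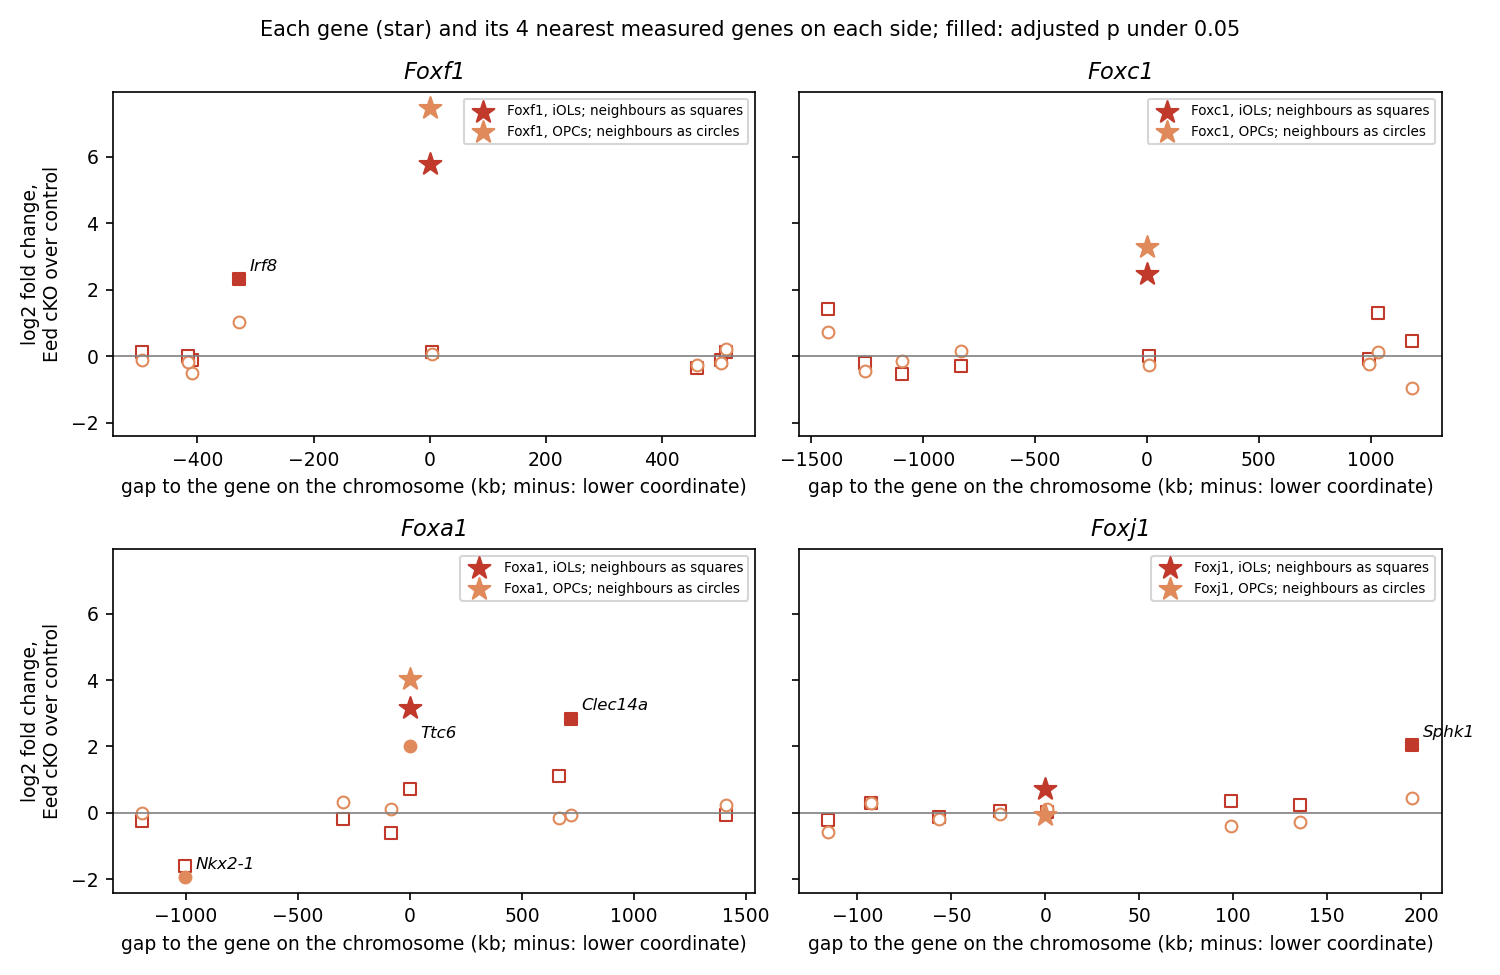
Log2 fold change in Eed cKO over control cells of each member (stars) and of its 4 nearest measured genes on each side, against the gap between the genes in kb, squares for iOLs and circles for OPCs, filled where the adjusted p of a neighbour is under 0.05. The stars carry no test, and the neighbours within 10 kb of Foxf1, Foxc1 and Foxj1 lie between -0.27 and 0.12.

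Gene lists of the tissues in which the 4 factors are known to act were then counted. Their counts are set beside the share of all genes called. In iOLs 7.08% of all genes were higher and 3.51% lower, and in OPCs 2.94% higher and 0.303% lower. The lists were chosen with earlier results of these data known. Some of their genes have a row only through cKO libraries. Tbx18, for example, had 6 summed counts in control iOLs and 3 in control OPCs. Shares above those of all genes can follow from both, so nothing is read from them. Postnatal day is not balanced over the OPC groups. With day as a term no cKO against control call of a gene named here from these lists was lost, and more genes were called: 15 cilia, 8 hedgehog and 7 splanchnic mesenchyme genes in iOLs, and 5 cilia, 2 hedgehog and 10 floor plate genes in OPCs. For Foxj1 the list was 74 genes of motile cilia and ependymal cells, of which 41 had a row. In cKO iOLs 8 of the 41 (19.5%) were called higher, against 7.08% of all genes, and 1 (2.44%) lower, against 3.51%, with a median log2 fold change of 0.71. Ccno, a cyclin of multiciliated cells, rose by 2.18 ± 0.44, Trp73, a p53 relative needed for multiciliated cells, by 2.04 ± 0.41 and Tekt1, a tektin of ciliary microtubules, by 1.90 ± 0.34. Dnah10, an axonemal dynein heavy chain, fell by 1.96 ± 0.38. In cKO OPCs 2 of the 41 (4.88%) were higher, near the 2.94% of all genes, and 0 lower, with a median of 0.09. These 2 were Trp73, with 284 counts in cKO against 11 counts in control (4.01 ± 0.38, adjusted p = 0.000614, edgeR), and Dnah11, another dynein (0.95 ± 0.22). In iOLs the call of Ccno ended without control iOL replicate 2 or either cKO iOL library, and that of Trp73 without either control iOL library or cKO iOL replicate 2. That of Dnah10 ended without control iOL replicate 2 or cKO iOL replicate 1, and that of Tekt1 without control iOL replicate 1 or cKO iOL replicate 2 (adjusted p from 0.0511 to 0.107). That of Dnah11 ended in 8 of 16 alternatives (0.0881 to 0.192), all 4 iOL libraries, control OPC replicate 1 and cKO OPC replicates 1 and 2 left out one at a time among them. The 9 calls in iOLs numbered 2 or 3 without any 1 of the iOL libraries, and the 2 in OPCs numbered 7 without cKO OPC replicate 3 and 5 without control OPC replicate 2.

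In differentiation, where Foxj1 was higher in iOLs, 15 of the 41 cilia genes (36.6%) were called higher and 4 (9.76%) lower in cKO cells, and 7 (17.1%) higher and 9 (22%) lower in control cells. Over all genes 18.5% were higher and 21.8% lower in cKO cells, and 21% higher and 25.3% lower in control cells, so the control shares of the cilia list lay below those of all genes. Kif9 rose in both, by 3.01 ± 0.33 in cKO cells and by 2.19 ± 0.39 in control cells, and Dnah10 by 3.66 ± 0.43 and 5.67 ± 0.50. Ccno fell in both, by 1.40 ± 0.32 and by 3.49 ± 0.42. The difference between stages of the cKO effect was called by edgeR for 0 of the 41, with 12 at an unadjusted p under 0.05. Of 12 ependymal markers 4 had a row (Rarres2, Rsph1, Cfap126 and Dnah11). Their summed level was 9.58 to 10.2 CPM in cKO iOLs, against 7.38 to 7.72 CPM in control iOLs, and 8.25 to 10.1 CPM in cKO OPCs, against 7.09 to 9.32 CPM in control OPCs. Of 10 choroid plexus markers 3 had a row (Ttr, Aqp1 and Otx2). Their summed level was 14.49 to 14.74 CPM in cKO iOLs, against 4.71 to 4.997 CPM in control iOLs, and 18.9 to 22.3 CPM in cKO OPCs, against 13.3 to 16.3 CPM in control OPCs. The choroid plexus sum was thus higher in cKO cells with no overlap at both stages, and the ependymal sum in iOLs. Of all single genes, 33.6% were higher with no overlap in iOLs and 16.9% in OPCs. Of the 3 choroid plexus markers, 2 were called higher in iOLs and 1 in OPCs, where 7.08% and 2.94% of all genes were. Ttr was called at neither stage. It averaged 1.30 CPM in cKO against 0.707 CPM in control iOLs, but 4.89 CPM in cKO against 7.25 CPM in control OPCs. The part of ependymal and choroid plexus cells in the levels of Foxj1 and of the cilia genes was not tested.

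For Foxf1 the hedgehog pathway and the mesenchyme of lung, gut and splanchnic mesoderm were listed. Of 20 hedgehog genes 18 had a row, and 4 (22.2%) were higher, against 7.08% of all genes, and 0 lower in cKO iOLs, with a median of 0.52. These were the ligand Shh (1.58 ± 0.29) and the co-receptors Gas1 (1.52 ± 0.15), Boc (0.99 ± 0.26) and Cdon (0.89 ± 0.23). The other 14 were not called, among them Ptch1 (0.21 ± 0.33) and Hhip (-0.22 ± 0.21). Ptch1 (0.06 ± 0.30) and Hhip (0.25 ± 0.17) were not called in OPCs either. In cKO OPCs Cdon (1.95 ± 0.22, adjusted p = 0.00168, edgeR) was the 1 gene of 18 (5.56%) called, near the 2.94% of all genes, with a median of 0.03. The calls of Shh and Boc in iOLs ended without any 1 of the iOL libraries, and that of Cdon without control iOL replicate 1 or either cKO iOL library. Those of Boc and Cdon also ended without cKO OPC replicate 1 or 2, and that of Boc with RLE size factors in place of TMM (adjusted p from 0.0503 to 0.266 in all). Those of Gas1 in iOLs and Cdon in OPCs held in all 16 alternatives. The 4 calls in iOLs numbered 1 or 2 without any 1 of the iOL libraries or without cKO OPC replicate 1 or 2. The 1 in OPCs numbered 4 without control OPC replicate 2 and 3 without cKO OPC replicate 3. Of 29 mesenchyme genes 10 had a row, with 3 (30%) higher and 1 (10%) lower in cKO iOLs and 4 (40%) higher and 0 lower in cKO OPCs. All genes were called higher in 7.08% and lower in 3.51% of cases in iOLs, and higher in 2.94% in OPCs. The medians were 1.76 in iOLs and 0.88 in OPCs. Wnt2b, a Wnt ligand, rose at both stages, by 2.54 ± 0.32 in iOLs and by 2.93 ± 0.36 in OPCs, and so did the homeobox factor Hlx, by 2.09 ± 0.31 and 4.61 ± 0.32. Osr2, a zinc-finger factor of mesenchyme, had 1038 counts in cKO OPCs, against 8 counts in control OPCs, a ratio of 83.0 with a counting interval of 42.0 to 193 (adjusted p = 0.00244, edgeR). The T-box factors Tbx3 (4.05 ± 0.86 in OPCs) and Tbx2 (2.30 ± 0.60 in iOLs) rose, and the ligand Bmp4 fell by 1.58 ± 0.34 in iOLs. The call of Tbx3 ended without control OPC replicate 1, cKO OPC replicate 1 or 2, or either cKO iOL library, that of Tbx2 without any 1 iOL or cKO OPC library, and that of Bmp4 without either control iOL library or cKO iOL replicate 1 (adjusted p from 0.0506 to 0.257). That of Hlx in iOLs ended without control iOL replicate 1 (adjusted p = 0.0510). The 4 calls in iOLs numbered 1 without control iOL replicate 1 and 2 without cKO iOL replicate 1.

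For Foxc1 the list was 41 genes of meningeal and perivascular mesenchyme, of which 29 had a row. The list also holds Foxd1, and it shares Bmp4 with the mesenchyme list above. In cKO iOLs 11 of the 29 (37.9%) were higher, against 7.08% of all genes, and 1 (3.45%) lower, close to the 3.51% of all genes, with a median of 0.79. In cKO OPCs 11 (37.9%) were higher, against 2.94% of all genes, and 0 lower, with a median of 0.44. The T-box factor Tbx15 had 231 counts in cKO iOLs, against 6 counts in control iOLs, a ratio of 36.4 (16.5 to 100.1), and 329 counts in cKO OPCs, against 7 counts in control OPCs, a ratio of 30.1 (14.4 to 75.4). Tbx18 had 122 counts in cKO iOLs, against 6 counts in control iOLs, a ratio of 19.2 (8.58 to 53.4), and 464 counts in cKO OPCs, against 3 counts in control OPCs, a ratio of 98.9 (33.6 to 482). Tbx18 and Foxf1 thus both had few counts in control cells. Their ratios were larger in OPCs, but for both genes the counting intervals of the 2 stages overlapped. The difference between stages of the cKO effect was called by edgeR for 0 of the 29 genes of this list. Of all genes, 0.945% were called higher and 0.886% lower. Aldh1a2, which makes retinoic acid in the meninges, had 98 counts in cKO iOLs, against 3 counts in control iOLs, a ratio of 30.9 (10.3 to 152), and rose by 4.27 ± 0.37 in OPCs. The growth factor Igf2 rose by 4.18 ± 0.47 in iOLs and by 4.43 ± 0.61 in OPCs, and its OPC call ended without control OPC replicate 1 (adjusted p = 0.0587). The 12 calls in iOLs numbered 6 without control iOL replicate 2 and 7 without cKO iOL replicate 1. The 11 in OPCs numbered 3 without control OPC replicate 1, 6 without cKO OPC replicate 1 and 5 without cKO OPC replicate 2.

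Of 13 fibroblast and meningeal markers 9 had a row (Dcn, Col1a1, Col1a2, Col3a1, Pdgfrb, Ptgds, Igf2, Aldh1a2 and Fbln1). Their summed level was 64.3 to 84.4 CPM in cKO iOLs, against 32.8 to 100.9 CPM in control iOLs, and 99.8 to 169 CPM in cKO OPCs, against 130.9 to 131.9 CPM in control OPCs, so the groups overlapped at both stages. Igf2 and Aldh1a2 are in both lists. Of 13 endothelial markers 4 had a row (Flt1, Kdr, Egfl7 and Erg). Their summed level was 90.2 to 106 CPM in cKO iOLs, against 37.7 to 42.6 CPM in control iOLs, and 11.9 to 14.1 CPM in cKO OPCs, against 3.81 to 4.74 CPM in control OPCs. The endothelial sum thus moved with Foxc1 and Foxf1 between genotypes, and its part in their levels was not tested.

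For Foxa1 the list was 42 genes of the floor plate, dopamine neurons and endoderm, of which 17 had a row, with Shh also in the hedgehog list. In cKO iOLs 9 of the 17 (52.9%) were higher, against 7.08% of all genes, and 1 (5.88%) lower, against 3.51%, with a median of 1.17. In cKO OPCs 5 (29.4%) were higher, against 2.94% of all genes, and 1 (5.88%) lower, against 0.303%, with a median of 0.70. The homeobox factor Nkx6-1 of ventral neural tube and pancreas had 223 counts in cKO iOLs, against 6 counts in control iOLs, a ratio of 35.1 (15.9 to 96.7), and rose by 2.92 ± 0.39 in OPCs. Onecut2, a factor of liver and neurons, rose by 1.83 ± 0.37 in iOLs and by 3.90 ± 0.40 in OPCs. En1, a midbrain factor of dopamine neurons, rose by 2.23 ± 0.28 in iOLs. The dopamine transporter gene Slc6a3 rose by 1.56 ± 0.20 in OPCs. Nkx2-2, which is needed for oligodendrocyte differentiation, fell by 1.68 ± 0.25 in iOLs, and Nkx2-1 fell in OPCs as given above. The call of Onecut2 in iOLs ended without any 1 of the 4 iOL libraries (adjusted p from 0.0560 to 0.127), while those of Nkx6-1 and Nkx2-2 in iOLs held in all 16 alternatives. The 10 calls in iOLs numbered 4 to 6 without any 1 of the iOL libraries, and the 6 in OPCs numbered 11 without control OPC replicate 2 and 3 without cKO OPC replicate 1. All 16 neuron markers had a row, and 4 were called higher in cKO cells at each stage. Of all genes, 7.08% were called higher in iOLs and 2.94% in OPCs. Their summed level was 1243 to 1259 CPM in cKO iOLs, against 1309 to 1325 CPM in control iOLs, and 1212 to 1760 CPM in cKO OPCs, against 1041 to 1176 CPM in control OPCs. The groups did not overlap, with cKO lower in iOLs and higher in OPCs, and the part of neurons in these levels was not tested.

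**Figure D5:**
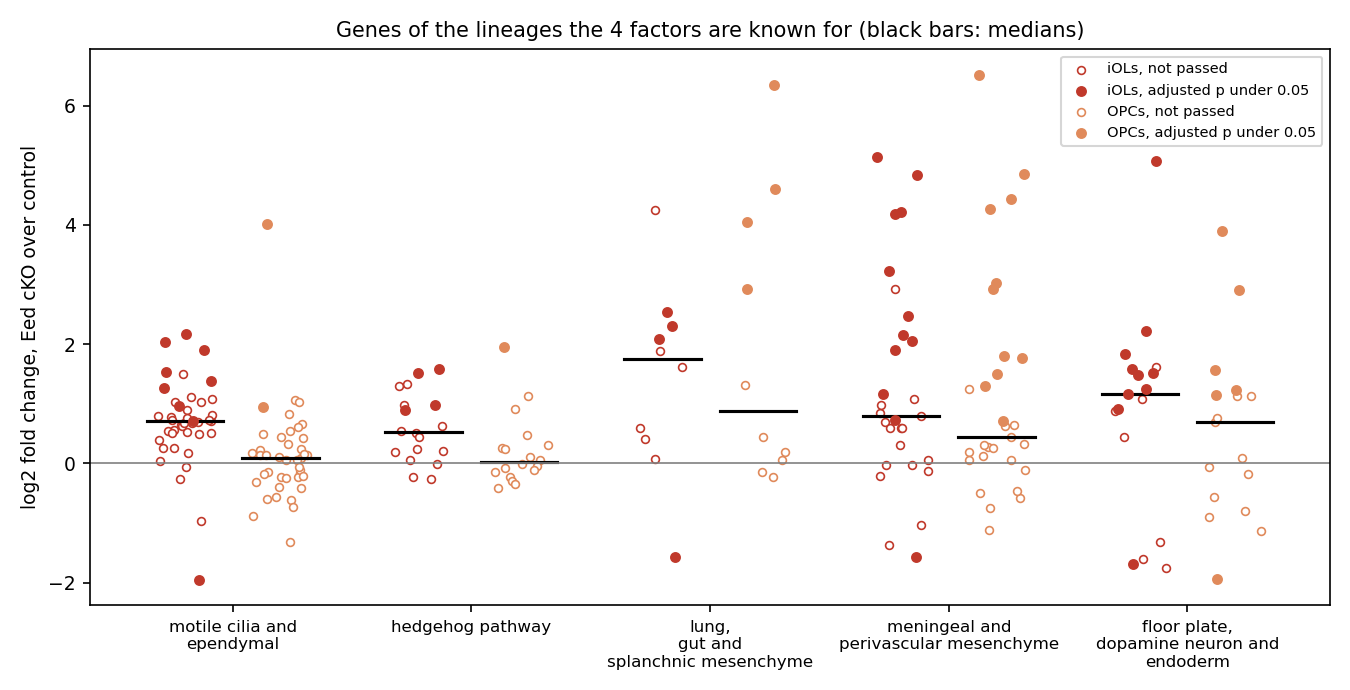
Log2 fold change in Eed cKO over control cells (edgeR) of every gene with a row in the 5 lists, red for iOLs and orange for OPCs, filled where the adjusted p is under 0.05, with black bars at the medians. The medians lie between 0.52 and 1.76 in iOLs and between 0.03 and 0.88 in OPCs, against 0.00 and -0.02 over all genes.

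Markers of the labelled cell types and of other cells were summed in each group. All 10 OPC markers had a row, and their summed level was 5692 to 5741 CPM in cKO iOLs, against 8550 to 9256 CPM in control iOLs, and 16874 to 17187 CPM in cKO OPCs, against 15708 to 19647 CPM in control OPCs. Of 13 oligodendrocyte markers 12 had a row, with sums of 2266 to 3292 CPM in cKO iOLs, against 9398 to 9541 CPM in control iOLs. In OPCs they were 1342 to 3301 CPM in cKO, against 2607 to 7298 CPM in control. The oligodendrocyte sums of cKO iOLs thus lay within the range of cKO OPCs, while their OPC marker sums were lower. Of the 12 oligodendrocyte markers, 6 were called lower in cKO iOLs and 1 in cKO OPCs. Of all genes, 3.51% were called lower in iOLs and 0.303% in OPCs. Of 8 red blood cell genes 1 had a row, Hbb-b1. It had 0.213 to 0.423 CPM in cKO iOLs, against 0.795 to 1.17 CPM in control iOLs. In OPCs it had 780 to 1044 CPM in cKO, against 562 to 2877 CPM in control. The OPC libraries thus held Hbb-b1 RNA that the iOL libraries nearly lacked. With this 1 gene, the cells it came from and their part in the differences between stages were not tested. The sums of astrocyte markers (11 of 12 with a row) were 9736 to 11730 CPM in cKO iOLs, against 6894 to 7028 CPM in control iOLs, and 3281 to 8274 CPM in cKO OPCs, against 3792 to 10317 CPM in control OPCs. Of the 11 astrocyte markers, 0 were called higher and 1 was called lower in cKO cells at each stage. Over all genes 7.08% were higher and 3.51% lower in iOLs, and 2.94% higher and 0.303% lower in OPCs. In iOLs the astrocyte sum, like Foxj1, was higher in cKO than in control. In cKO cells the astrocyte sum was also higher in iOLs than in OPCs, while in control cells the stages overlapped. The part of astrocytes in the level of Foxj1, between genotypes or between stages, was not tested.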

How the data were processed

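RNA was measured in 9 libraries, and the deposited table holds raw counts of reads per gene. Per the submitters' processing notes, the tools included cutadapt 1.14, STAR 2.6.0 and featureCounts of Subread 1.6.2, with the build mm10. Per the labels' protocols, a stranded polyA kit was used above 100 ng of RNA and an amplifying kit below, and which library had which is not stated. In the table, 1 row that named no gene was dropped. Positions come from RefSeq, where 13265 symbols (97.9%) were found.

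All 9 libraries entered 1 fit in edgeR 4.0.16 (R 4.3.3, TMM, 4 group means, quasi-likelihood test). A filter at a minimum count of 10 took out no gene. A gene is called where its p, adjusted by Benjamini-Hochberg over 13549 genes, is under 0.05. The biological coefficient of variation was 16.3%, with 5 residual degrees of freedom. The fit was tested on simulated data. Alternatives were other scalings and filters, fits of the compared groups, with postnatal day or with a replicate block, DESeq2 1.42.0, and leaving out each library. Ratios of the members are summed counts per TMM-scaled size with exact Clopper-Pearson 95% intervals, and CPM intervals are exact Poisson.

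The members and all gene lists were chosen with earlier results of these data known. Named genes are the members, all other forkhead genes (1 is not reported here by name), the 4 nearest genes on each side, the 4 with the highest Pearson correlation of log2 CPM (prior count 2), Eed, and up to 4 called genes per list and stage by size of fold change. A few further genes, such as Kif9 in differentiation, were chosen after their values were seen. The labels do not state separate animals or cultures for replicates, so a p-value covers the spread between libraries, which may be technical. Replicates differed by more than sampling noise (chi-square per degree of freedom 6.48 to 106).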

Additional observations from a re-analysis of the deposited data

How the results depend on the processing

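The members' log2 ratios for cKO over control kept their sign under every scaling, fit and left-out library for Foxf1, Foxc1 and Foxa1 at both stages and for Foxj1 in iOLs. In OPCs Foxf1 moved to 7.19 within postnatal day 7 and 8.07 within day 6, and Foxa1 to 5.44 and 3.29. For iOLs over OPCs in control cells, day 6 alone gave 1.09 for Foxf1, 1.09 for Foxc1 and -0.32 for Foxa1, and with day as a term Foxc1 in cKO cells had 0.095. Leaving out 1 library at a time gave cKO over control in iOLs of 5.59 to 6.07 for Foxf1, 2.37 to 2.58 for Foxc1, 2.82 to 3.78 for Foxa1 and 0.47 to 0.998 for Foxj1. In OPCs it gave 7.10 to 8.25, 3.04 to 3.61, 3.50 to 5.34 and -0.10 to 0.01. For iOLs over OPCs in cKO cells it gave -1.57 to -1.09, -0.13 to 0.05, -0.73 to -0.39 and 2.49 to 2.596. In control cells it gave -0.061 to 1.09, 0.52 to 1.09, -0.32 to 1.52 and 1.501 to 2.03.

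Counts of called genes moved more. The replicate numbers did not pair the samples (same-numbered deviations correlated at 0.313, -0.352 and 0.239). Postnatal day did match in OPCs: deviations of the cKO and control libraries of the same day correlated at 0.313, 0.352 and 0.43. The cKO OPC libraries of day 7 were closest to each other, at a chi-square of 7.67 per degree of freedom, against 47.3 and 47.4 to the day 6 library. The control OPC libraries, which differ in day, stood 106 apart on that scale. With a replicate block, 6 other forkhead genes were higher in cKO OPCs and 7 cilia genes were called there, while the fitted log2 ratio of Foxf1 was 7.57 in OPCs and 5.76 in iOLs. The block ended the iOL calls of Boc and Tbx2. Block 3 holds a cKO OPC library alone. With the compared groups alone, 1 other forkhead gene was higher in cKO OPCs, 2 were lower in cKO iOLs and 1 was higher on control differentiation. That fit called 1 neighbour, 1 cilia gene and 5 meningeal genes in OPCs. In iOLs it called 9 neighbours, 16 cilia, 8 hedgehog and 7 splanchnic genes. With postnatal day as a term, OPC calls were 5 cilia, 2 hedgehog and 10 floor plate genes, and iOL calls were 7 neighbours, 15 cilia, 8 hedgehog and 7 splanchnic genes. DESeq2 called 4 cilia genes in OPCs and 5 neighbours in iOLs. A filter at 1 CPM in 4 libraries left 1 neighbour called in OPCs. The cause of these shifts was not tested.

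Leaving out 1 library at a time, other forkhead genes called higher ran from 1 to 8 in cKO iOLs and from 1 to 5 in cKO OPCs, and those called lower from 0 to 1 in iOLs and 0 to 0 in OPCs. On differentiation they ran from 1 to 2 higher and 5 to 9 lower in cKO cells, and from 1 to 5 and 9 to 11 in control cells. Neighbours called ran from 0 to 5 in iOLs and 0 to 12 in OPCs. The iOL and OPC ranges were 2 to 11 and 1 to 7 for cilia, 1 to 5 and 1 to 4 for hedgehog, 1 to 6 and 3 to 5 for splanchnic, 6 to 15 and 3 to 15 for meningeal, and 4 to 12 and 3 to 11 for floor plate genes. Eed passed in OPCs with day as a term, with DESeq2 and without control OPC replicate 2. In iOLs it passed with the compared groups alone, with day as a term and without either control OPC library. With few counts in control libraries, depth limits how well the ratios of Foxf1 and Foxa1 are known.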
